A study of Homo sapiens with 2 samples.

Results

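The genes of the mitochondrial ribosome were followed through the FAIRE-seq peak lists of HepG2 cells with and without depletion of the nuclear receptor NR2E3. Members were all listed peaks whose nearest gene was protein-coding and had a symbol starting with MRPL or MRPS, for large and small subunit, followed by a digit. Of 56159 peaks, 153 were chosen in this way. They named 58 of the 78 such genes in the GENCODE annotation, which holds 49 MRPL and 29 MRPS genes. A further 6 peaks carried MRPL or MRPS names of pseudogenes or non-coding RNAs and were not members.

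HepG2 is a human line derived from a liver cancer. In FAIRE, chromatin is fixed with formaldehyde and sonicated, and the DNA free of crosslinked protein is sequenced, which enriches for open regions. One library came from cells given lentivirus with a scrambled hairpin (the control library) and one from cells given lentivirus with a hairpin against NR2E3 (the NR2E3-depleted library). Both groups were the same line in the same medium, the time after transduction is not given in the sources used here, and the depletion was by 1 hairpin in 1 cell line. With 1 library per group there was no replicate check and no test between the conditions. All intervals are exact 95% intervals, which hold for counting error alone and take each peak as independent.

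Mitochondrial ribosomes translate the few proteins that are still encoded by mitochondrial DNA, all of them subunits of the respiratory chain and the ATP synthase. Their RNA is made inside the organelle, but every ribosomal protein is encoded in the nucleus and imported. These nuclear genes are active in nearly all cells, and their short promoters are known for binding sites of ETS factors such as GABPA, of NRF1 and of YY1. Hepatocytes are rich in mitochondria.

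The lists separate peaks common to both libraries, peaks specific to the control library (control-specific) and peaks specific to the NR2E3-depleted library (depleted-specific). A peak's score is a scaled number of sequenced tags, and 1 tag was worth 0.407 in the common and control-specific lists and 0.507 in the depleted-specific list. Scores are therefore given below as tags. Common peaks carry the control scale only, so their level in the NR2E3-depleted library was not analysed here. A peak that is specific to one library has no listed value in the other, which is not a value of 0. If both lists use the same scale, sequencing of the NR2E3-depleted library was 0.802 as deep as that of the control library. Among liver markers, APOA1, APOB, SERPINA1, HNF4A and FOXA2 carried common promoter peaks. ALB and AFP had peaks outside promoters only and TTR had none, while 0 of 5 marker genes of other cell types (PTPRC, CD3E, COL1A1, PECAM1 and GFAP) had a promoter peak. Outside promoters PECAM1 had 2 common, 5 control-specific and 1 depleted-specific peak, and CD3E and GFAP had 1 peak each. NR2E3 itself was named by 1 peak, which was depleted-specific and outside promoters, and FAIRE does not measure its transcript.

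The sequences at the centre of the strongest promoter peaks are given first, because the comparison turns on which of these promoters were listed in which library. Coordinates are hg38, letters run 5′ to 3′ on the gene's strand, and each stretch is the central part of a peak, ended where it would reach over 30 bases into a transcript. Capitals mark the motifs GGGCGG (Sp1), CCAAT (NFY), CCGGAAG (ETS factors), CGCATGCG (NRF1) and ATGGCGG (YY1) on either strand. The common peaks with the most tags were those of MRPL52 (chr14:22829704-22829903, + strand, 39 tags) and MRPS9 (chr2:105037859-105038058, + strand, 28 tags).
MRPL52: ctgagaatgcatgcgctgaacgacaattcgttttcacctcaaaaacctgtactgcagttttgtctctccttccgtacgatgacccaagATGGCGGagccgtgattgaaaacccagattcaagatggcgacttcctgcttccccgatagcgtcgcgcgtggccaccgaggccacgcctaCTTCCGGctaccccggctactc
MRPS9: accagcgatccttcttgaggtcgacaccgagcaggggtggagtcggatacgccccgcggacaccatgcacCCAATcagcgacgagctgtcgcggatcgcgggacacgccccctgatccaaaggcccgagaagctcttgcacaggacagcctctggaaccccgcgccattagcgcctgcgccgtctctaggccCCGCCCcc

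The depleted-specific promoter peaks with the most tags were those of MRPL24 (chr1:156741059-156741251, - strand, 22 tags) and MRPS16 (chr10:73252615-73252753, - strand, 20 tags). The MRPL24 stretch held none of the 5 motifs, whereas the MRPS16 stretch held an Sp1 and an ETS motif.
MRPL24: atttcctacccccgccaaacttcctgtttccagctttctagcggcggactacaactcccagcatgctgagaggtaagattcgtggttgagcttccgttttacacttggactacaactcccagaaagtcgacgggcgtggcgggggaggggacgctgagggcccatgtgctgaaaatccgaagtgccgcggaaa
MRPS16: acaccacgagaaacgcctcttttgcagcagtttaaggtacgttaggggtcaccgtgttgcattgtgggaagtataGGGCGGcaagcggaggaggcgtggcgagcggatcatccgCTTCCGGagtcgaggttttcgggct

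For the control-specific list the stretches shown are those of MRPL41 (chr9:137551485-137551684, + strand, 14 tags) and MRPS18A (chr6:43688121-43688320, - strand, 14 tags). Both lie upstream of the GENCODE transcription start site (TSS), from -394 to -195 bp and from -529 to -330 bp. MRPL41 held 2 Sp1 motifs and MRPS18A held none of the motifs. MRPL14, which tied with them at 14 tags, is not shown because its peak lies inside the gene.
MRPL41: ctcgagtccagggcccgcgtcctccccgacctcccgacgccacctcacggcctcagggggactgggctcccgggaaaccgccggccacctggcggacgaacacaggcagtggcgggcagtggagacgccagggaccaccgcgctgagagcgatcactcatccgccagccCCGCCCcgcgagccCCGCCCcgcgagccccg
MRPS18A: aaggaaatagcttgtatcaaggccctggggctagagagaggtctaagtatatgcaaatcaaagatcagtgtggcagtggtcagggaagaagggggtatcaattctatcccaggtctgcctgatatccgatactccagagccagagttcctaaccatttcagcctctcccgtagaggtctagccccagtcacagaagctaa

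The first comparison asked how many mitochondrial ribosomal protein genes had a peak in their own promoter. Of the 78 genes, 49 had a promoter peak in at least 1 list, or 62.8% (51.1% to 73.5%), against 28.8% of all protein-coding genes. A common promoter peak was listed for 29 genes, or 37.2% (26.5% to 48.9%), against 15% of all 20007 protein-coding genes. A depleted-specific promoter peak was listed for 17 genes, or 21.8% (13.2% to 32.6%), against 11.9% of all genes. A control-specific promoter peak was listed for 6 genes, or 7.69% (2.88% to 16.0%), against 3.74% of all genes. The background thus lay below the interval of the members for the common and depleted-specific lists and within it for the control-specific list. Counted by library, 34 genes (43.6%) had a promoter peak with NR2E3 present and 45 (57.7%) after its depletion, against 18.1% and 26.1% of all genes. In that library alone, 4 (5.13%) and 15 (19.2%) of the 78 genes had one, against 2.71% and 10.7% of all genes.

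An excess of depleted-specific over control-specific promoters was present in these genes and over all genes. Member promoter peaks numbered 17 depleted-specific against 6 control-specific, a ratio of 2.83 (1.07 to 8.78). Over all protein-coding genes the ratio was 3.24, which lies inside that interval. Including peaks of every class, 59 depleted-specific peaks stood against 41 control-specific peaks, a ratio of 1.44 (0.95 to 2.20) beside 1.61 for all protein-coding nearest genes. When only peaks of at least 15 tags were counted the ratio fell below 1, to 0.737 (0.342 to 1.55), an interval that includes 1. That minimum kept 46.3% of control-specific and 23.7% of depleted-specific member peaks, and 45.8% and 20.6% of all peaks of those lists.

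The same lists were counted for related genes. Among 79 genes of the cytoplasmic ribosome, which translates all other cellular proteins, 37 had a common, 14 a depleted-specific and 6 a control-specific promoter peak. Among 85 genes of the respiratory chain and ATP synthase, the complexes that receive the mitochondrially made subunits, the counts were 21, 18 and 3. Among 57 other genes of mitochondrial translation they were 21, 10 and 4. The depleted-specific shares of the 4 sets ran from 17.5% to 21.8%, with intervals that overlapped, and the common shares from 24.7% in the respiratory chain to 46.8% in the cytoplasmic ribosome.

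**Figure D1:**
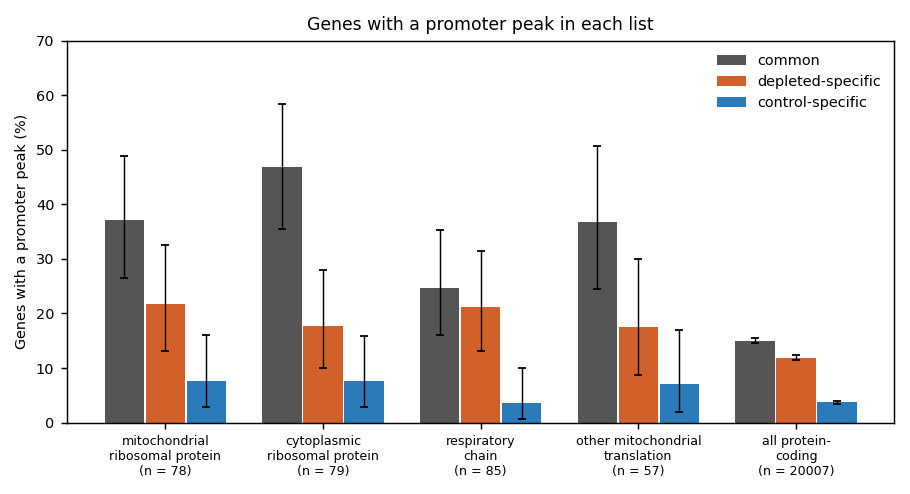
Share of genes (%, vertical axis) with a promoter peak in the common, depleted-specific and control-specific lists, for 4 gene sets and for all protein-coding genes. Bars are shares and error bars exact 95% intervals from counting alone, with 1 library per condition. In the mitochondrial ribosomal protein set the bars stand at 37.2%, 21.8% and 7.69%, beside 15%, 11.9% and 3.74% for all genes.

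Within mitochondrial translation, a list of 17 genes had 9 common, 3 depleted-specific and 0 control-specific promoter genes. It held initiation, elongation and release factors together with genes of mRNA stability (LRPPRC and SLIRP), membrane insertion (OXA1L) and formyl handling (MTFMT and PDF). The 20 assembly genes had 4, 5 and 0. The 20 aminoacyl-tRNA synthetases and related enzymes, which charge the tRNAs, had 8, 2 and 4. The 4 control-specific ones were AARS2, FARS2, WARS2 and the amidotransferase subunit GATB, with 14 to 17 tags each. The interval of that share, 5.73% to 43.7%, overlapped those of the other lists, whose upper bounds were 19.5% and 16.8%. The share over all genes, 3.74%, lay below it, but this was the highest such share among several small lists. Over all genes the common and depleted-specific shares were 15% and 11.9%. Depleted-specific genes of these lists included MTIF3, an initiation factor, with 20 tags, and TSFM, the exchange factor of the elongation factor Tu, with 12. They also included the assembly factors MTG1 (18 tags), NSUN4 (15) and MALSU1 (12).

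The promoter peaks with the most tags were common ones, counted in the control library. Their tags ran from 12 to 39 with a median of 17, which is also the median of all common promoter peaks. MRPL52, a large subunit protein specific to mitochondrial ribosomes, led with 39 tags (27.7 to 53.3) centred 84 bp upstream of its TSS at chr14:22829653-22829953. A second common promoter peak of MRPL52 lay at -650 bp with 12 tags. MRPS9, a protein of the small subunit head, followed with 28 tags at chr2:105037808-105038108. MRPL33 had 26 tags at chr2:27771464-27771764 and MRPL38 had 25 at chr17:75904997-75905297, both in the large subunit. MRPL44, MRPL53 and MRPS23 tied at 24 tags. All of the genes ranked here lie on chromosomes 2, 14 or 17, which are densely covered by peaks in these libraries. The part of that coverage in their tags was not tested. The counting intervals of neighbours in this order overlapped, MRPL52 and MRPS9 included, so the order is not resolved at this depth. Tags are not scaled for depth, and the order by deposited score differed. By score, depleted-specific MRPL24 (11.2) stood below MRPL52 (15.9) and MRPS9 (11.4) but above MRPL33 (10.6) and MRPL38 (10.2). Depleted-specific MRPS16 (10.1) stood above MRPL44, MRPL53 and MRPS23 (9.76 each).

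Further common promoters in the large subunit included MRPL11 and MRPL12, proteins of the stalk that recruits translation factors, with 17 and 14 tags. MRPL2 and MRPL3, which lie near the peptidyl transferase centre, had 17 and 14. MRPL45, which holds the ribosome against the inner membrane, had 16. MRPL58, a peptidyl-tRNA hydrolase that frees stalled ribosomes, had 13. In the small subunit they included MRPS12, a protein of the decoding centre, with 17 tags, and MRPS10 and MRPS31, with 16 each. The other common promoters were those of MRPL1, MRPL4, MRPL18, MRPL19, MRPL27, MRPL28, MRPL32, MRPL34, MRPL42, MRPL50, MRPS26, MRPS27 and MRPS36, with 12 to 22 tags.

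The 17 depleted-specific promoter peaks held 12 to 22 tags with a median of 13, beside 14 for all depleted-specific promoter peaks. MRPL24, a protein near the exit of the peptide tunnel, had 22 tags (13.8 to 33.3) at chr1:156741001-156741301, centred at -63 bp. MRPS16, whose loss in people impairs the respiratory chain, had 20 tags at chr10:73252503-73252803, centred at -9 bp. MRPL10, which anchors the MRPL12 stalk, had 18 tags. MRPS22 had 17 tags at chr3:139343818-139344118 and MRPL17 had 16 at chr11:6683226-6683526. The promoters of these 5 genes were in neither other list. The counting intervals of all 17 peaks overlapped one another.

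The remaining depleted-specific promoters had 15 tags in MRPL15 and MRPS18C, 14 in MRPS33, and 13 in MRPS5, MRPS18A and MRPS21. They had 12 tags in MRPL22, MRPL33, MRPL46, MRPL55, MRPS15 and MRPS24. MRPL22 lines the peptide exit tunnel and MRPS5 lies at the entry of the mRNA channel. The genes were split by symbol alone, which does not always match the place of the protein, as in MRPS18A, a large subunit protein. The split is therefore not strictly one of large against small subunit. By symbol, 8 of 49 MRPL genes, or 16.3% (7.32% to 29.7%), and 9 of 29 MRPS genes, or 31.0% (15.3% to 50.8%), had a depleted-specific promoter peak. Common promoter peaks went the other way, with 21 MRPL genes, or 42.9% (28.8% to 57.8%), and 8 MRPS genes, or 27.6% (12.7% to 47.2%). Both pairs of intervals overlapped, and the share with any promoter peak was 63.3% of MRPL and 62.1% of MRPS genes.

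The 6 control-specific promoter peaks held 13 or 14 tags, the low end of the common list, beside a median of 15 over all control-specific promoter peaks. MRPL14, a large subunit protein bound by the silencing factor MALSU1, MRPL41 and MRPS18A had 14 tags each. MRPL20, MRPL50 and MRPS25 had 13 each. With a minimum of 15 tags none of them remained, while 7 of the depleted-specific genes did. Over all peaks of every class that minimum kept 45.8% of control-specific and 20.6% of depleted-specific ones. The MRPL14 peak was assigned at -179 bp to the start of another isoform and lay over 1000 bp from any GENCODE start of the gene. MRPL20 (-4 bp) and MRPS25 (-125 bp) had their peaks closest to the TSS.

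**Figure D2:**
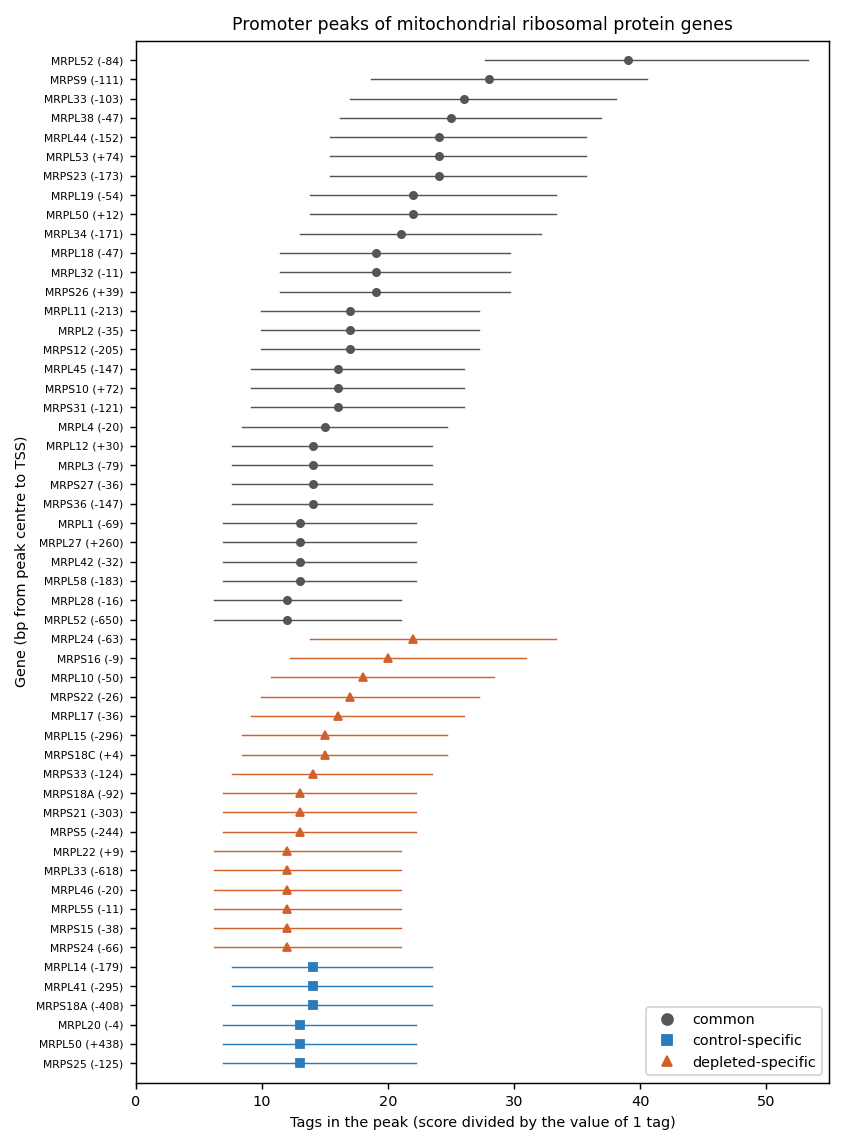
Tags in each of the 53 promoter peaks (horizontal axis, score divided by the value of 1 tag), 1 row per peak with the distance of its centre from the TSS in bp, by list. Bars are exact 95% Poisson intervals for counting alone, and common peaks carry control tags only. Common peaks reach 39 tags, depleted-specific peaks lie between 12 and 22, and control-specific peaks are at 13 or 14. Tags are not scaled for the depth of the library.

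In 3 genes a specific promoter peak lay close to a peak listed in the other library. MRPS18A had no common promoter peak but one of each specific kind, control-specific at -408 bp with 14 tags and depleted-specific at -92 bp with 13 tags, with centres 316 bp apart. Their deposited scores ran the other way, at 5.69 and 6.59. Despite its symbol, MRPS18A is a protein of the large subunit, and its paralogue MRPS18C, in the small subunit, had the depleted-specific peak alone. In MRPL33 a depleted-specific peak of 12 tags at -618 bp lay 515 bp from the common peak. In MRPL50 a control-specific peak of 13 tags at +438 bp lay 426 bp from the common peak. For the other 15 depleted-specific promoters the nearest peak listed in the control library was 1448 bp (MRPL46) to 189767 bp away. Within 1000 bp lay 2 of 17 depleted-specific and 2 of 6 control-specific member promoter peaks, or 11.8% and 33.3%, beside 11.3% and 27.9% over all protein-coding promoters.

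Promoter peaks sat close to the start. Of the 53, 48 (90.6%) were centred within 300 bp of the TSS, beside 84.2% of all protein-coding promoter peaks. The median centre was at -61.5 bp in the common list, -50 bp in the depleted-specific list and -152 bp in the control-specific list, where 4 of 6 lay within 300 bp. Promoter peaks made up 56.6% (42.3% to 70.2%) of common, 28.8% (17.8% to 42.1%) of depleted-specific and 14.6% (5.57% to 29.2%) of control-specific member peaks. Over all protein-coding nearest genes these shares were 28.4%, 13.2% and 6.55%.

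**Figure D3:**
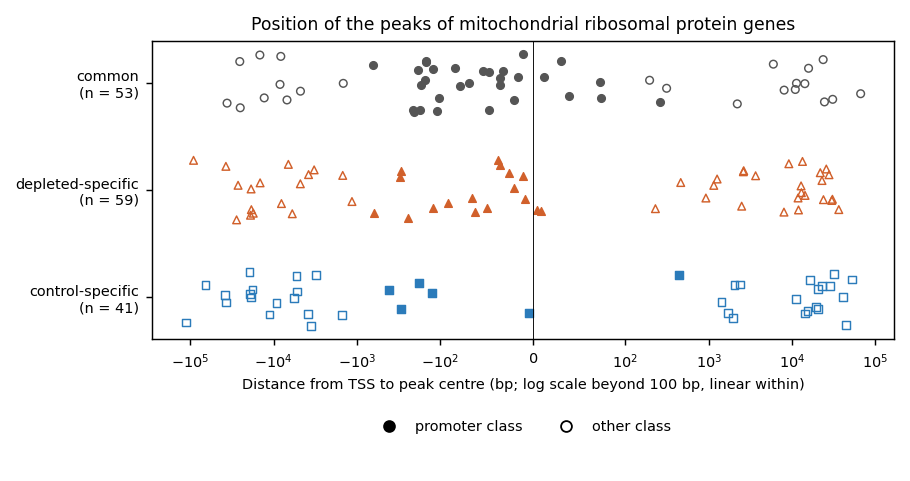
Distance from the TSS to the peak centre in bp (horizontal axis, log scale beyond 100 bp and linear within) for the 153 member peaks by list. Filled points are promoter peaks and open points other classes, with random vertical spread for display. Filled points gather near 0, and open points reach 113428 bp.

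For 29 genes no promoter peak carried their name, yet 11 of these had a listed peak within 1000 bp of a start. Most were named for a neighbour. The start of MRPL47 lay 133 bp from a depleted-specific peak of 22 tags named for NDUFB5, a complex I subunit. MRPS11 shares its upstream region with MRPL46, and the depleted-specific MRPL46 peak lay 300 bp from the MRPS11 start. MRPL37 and MRPS7 were near depleted-specific peaks named for CYB5RL (14 tags) and GGA3 (11 tags). MRPL30, MRPS18B, MRPL51 and MRPS30 were near common peaks named for MITD1 (20 tags), PPP1R10 (35), NCAPD2 (15) and the non-coding MRPS30-DT (14). MRPL35 and MRPL54 had common peaks, and MRPS28 a depleted-specific peak, just inside the gene.

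Head-to-head neighbours were frequent. A protein-coding gene on the opposite strand started within 1000 bp of 26 of the 78 members (33.3%), against 9.47% of all protein-coding genes. Of the 29 genes without a promoter peak of their own 15 had such a neighbour, and of the 49 with one 11 did. In total 59 of 78 genes had a peak near a start under any name, a count with no share of all protein-coding genes beside it. The 19 genes with none were MRPL14, described above, and MRPL9, MRPL13, MRPL16, MRPL21, MRPL23, MRPL36, MRPL39, MRPL40, MRPL43, MRPL48, MRPL49, MRPL57, MRPS2, MRPS6, MRPS14, MRPS17, MRPS34 and MRPS35. No listed peak at all was named for 20 genes, which are these without MRPL14, MRPL16, MRPL48 and MRPS35 and with MRPL47, MRPL51, MRPS7, MRPS11 and MRPS30. Absence from the lists means no call at this depth and does not show closed chromatin.

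The counts differed by chromosome. Chromosomes 2, 6, 14, 16, 17 and 20 are densely covered by peaks in these libraries and hold 26 of the 78 genes. There 17 members (65.4%) had a common and 4 (15.4%) a depleted-specific promoter peak, against 25.9% and 13.0% of all genes on those chromosomes. On the other chromosomes 12 of 52 members (23.1%) had a common and 13 (25%) a depleted-specific promoter peak, against 10.8% and 11.6%. Peaks of all classes numbered 31 depleted-specific and 31 control-specific on the dense chromosomes, a ratio of 1.00 (0.588 to 1.70) beside 1.28 for all protein-coding nearest genes. Elsewhere they numbered 28 and 10, a ratio of 2.80 (1.32 to 6.46), beside 2.99 for all protein-coding nearest genes there. The cause of the dense coverage was not tested.

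Outside promoters, 100 peaks were assigned to members, 23 common, 35 control-specific and 42 depleted-specific. They comprised 50 intergenic, 38 intronic, 9 UTR, 2 transcription end and 1 exonic peak. Nearest-gene assignment reached far: 58 lay over 10000 bp from the TSS, the median distance was 12966 bp, and the largest was 113428 bp (MRPS10). Only 33 lay within the named gene, while 24 lay in another gene alone and 43 in no gene. On the dense chromosomes lay 72.0% of them, beside 74.0% of all peaks outside promoters with a protein-coding nearest gene.

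These distal peaks were concentrated in a few genes. MRPL33 had 11, of which 3 were common, 3 control-specific and 5 depleted-specific, with those downstream shared with the overlapping gene RBKS. Between chr2:27752299-27752599 and chr2:27753983-27754283, upstream of MRPL33, 2 control-specific peaks of 16 and 17 tags and 3 depleted-specific peaks of 12 to 15 tags were interleaved. Their centres were 301 to 560 bp from the nearest peak of the other library. MRPS23 had 10 (4 common, 5 control-specific and 1 depleted-specific). These included the highest control-specific member peak, 26 tags at chr17:57833356-57833656, which lay 16538 bp downstream of the start, and 3 peaks in the neighbouring gene CUEDC1. MRPL19, MRPL52 and MRPS18A followed with 7 each.

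The highest depleted-specific peaks outside promoters held 20 tags and were named for MRPL48 and MRPS27, the latter a pentatricopeptide repeat protein of the small subunit. The MRPL48 peak (chr11:73784456-73784756) again had a control-specific neighbour, of 16 tags, 307 bp away.

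The sequences of the promoters were then compared with those of all promoters. Within 100 bp of the centre, the ETS motif was present in 30.2% of the 53 member promoter peaks (18.3% to 44.3%) and in 15.4% of 6392 protein-coding promoter peaks. The YY1 motif was present in 18.9% (9.44% to 32.0%) and 6.01%. The Sp1 motif went the other way, with 35.8% (23.1% to 50.2%) and 55.5%, and NFY differed by less than the counting error, with 32.1% and 37.2%. Within 50 bp of the centre the ETS difference was no longer outside the counting error, at 13.2% (5.48% to 25.3%) against 8.78%, whereas YY1 stood at 11.3% (4.27% to 23%) against 2.69%. NRF1 was present within 50 bp in 7.55% (2.09% to 18.2%) against 1.96%, and within 100 bp in the same 7.55% against 3.33%. The median GC content of the same windows was lower in the members, 59.0% against 62.7% in the common list and 57.7% against 65.2% in the depleted-specific list, and its part in the motif shares was not tested.

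By list, the ETS motif was in 33.3% of common and 29.4% of depleted-specific member promoter peaks, and the Sp1 motif in 40.0% and 35.3%. Over all protein-coding promoter peaks of these lists the shares were 16.7% and 14.8% for ETS and 56.8% and 58.4% for Sp1. The 4 NRF1 motifs all lay in depleted-specific peaks, those of MRPL10, MRPL17, MRPL22 and MRPS18C, or 23.5% (6.81% to 49.9%) of 17. In common member peaks the motif was found in 0 of 30, with an upper bound of 11.6%, so the intervals overlapped. Among all promoter peaks its share was 3.41% in the depleted-specific and 3.52% in the common list. Of the 6 control-specific peaks 4 held none of the 5 motifs, as did 6 of 30 common and 4 of 17 depleted-specific peaks. No such share over all promoter peaks was counted, so these numbers do not set the members apart. These matches describe letters in a window and not bound factors.

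The same search in fixed RefSeq promoter windows (GRCh38.p14, 250 bases before to 50 after the start) did not depend on the peaks. Windows were found for 69 members and 15345 protein-coding genes. The ETS motif was in 42.0% (30.2% to 54.5%) of member windows against 14.4%, and the YY1 motif in 34.8% (23.7% to 47.2%) against 7.75%. Sp1 was nearly equal, at 60.9% and 59.2%. NRF1 stood at 4.35% (0.906% to 12.2%) against 2.85% and NFY at 29.0% (18.7% to 41.2%) against 36.6%, both within the counting error. Members with a common promoter peak, with a depleted-specific but no common one, and with none held the ETS motif in 48.1%, 42.9% and 37.5% and the YY1 motif in 37.0%, 35.7% and 37.5%. The NRF1 motif was in 3 of 14 windows of the second group and in 0 of 27 and 0 of 24 of the others. The intervals of these 3 groups overlapped for each of these motifs. Overlap does not show that the groups are equal, and promoters with and without a listed peak were not compared by a test at this number of genes.

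**Figure D4:**
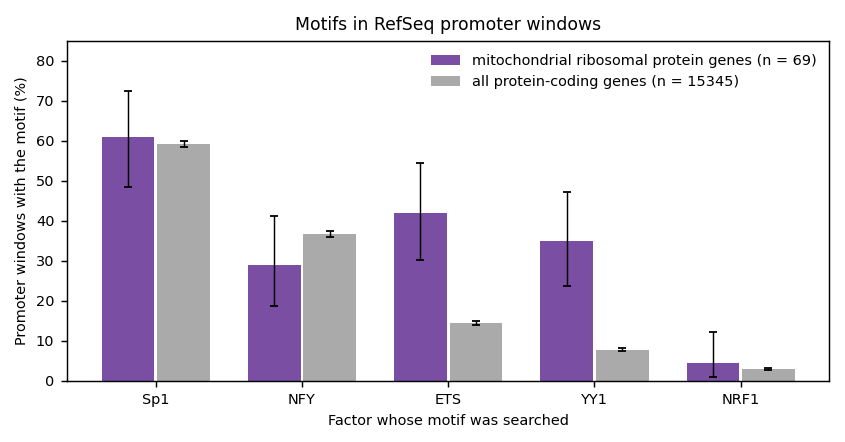
Share of RefSeq promoter windows (%, vertical axis) holding each motif on either strand, for 69 mitochondrial ribosomal protein genes and 15345 protein-coding genes. Bars are shares and error bars exact 95% intervals for counting alone. Members stand at 42.0% for ETS and 34.8% for YY1 against 14.4% and 7.75%, and the bars for Sp1 are nearly level.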

How the data were processed

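FAIRE-seq was analysed in 2 HepG2 libraries, 1 control and 1 NR2E3-depleted, grouped by the treatment in the labels. Per the submitters' processing notes and the study's methods, reads were trimmed (Trimmomatic 0.39) and mapped to hg38 (Bowtie2 2.4.5), and HOMER was used to call peaks below a q-value cutoff and to assign each its nearest gene and class. The authors deposited 3 lists of peaks (common, control-specific and depleted-specific). How specific peaks were told apart, and any correction for input or copy number, is not given in the sources used here.

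Each deposited peak score is the authors' signal value, a scaled tag number. Since every score below 10 was a whole multiple of a fixed step within 0.005, the rounding of the listed scores, tags were computed as score over step. The depth of the libraries is not stated. Distances of a peak to the TSS of its named gene and the promoter class are those of the deposited annotation. The positions of the printed stretches and the distances of members to peaks named for a neighbour were taken from GENCODE starts, which can differ. Genes, strands and neighbours came from GENCODE release 44 on hg38, and 40 of 6392 protein-coding promoter peaks matched no symbol there. Fixed promoter windows came from RefSeq.

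Shares carry Clopper-Pearson, tags Poisson and ratios binomial exact intervals at the 95% level. No p-value was computed, since each group had 1 library. The members, gene lists, motifs and rules for naming genes were chosen with earlier results of these data known. Named genes were those with specific promoter peaks, the highest common promoters, the genes with the most other peaks and the genes with none. Further members were named for their place in the ribosome after their values were seen. Alternatives covered the promoter definition, score and tag minimums, neighbouring peaks, dense chromosomes, membership and the motif window. One marker gene and 1 promoter sequence are not reported here. The calculations were tested on simulated data. Tools were pysam 0.24.0, matplotlib 3.10.9, scipy 1.17.1, pandas 2.3.3, numpy 2.4.6 and Python 3.11.15.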

Additional observations from a re-analysis of the deposited data

How the results depend on the processing

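Of 30 alternative values, 1 reversed and 11 moved, by over 1.5 times for counts of genes and outside the reported interval for shares and ratios. The other 18 did not. The number of genes with a depleted-specific promoter peak, 17 as reported, was 28 when any peak within 1000 bp of a GENCODE start counted. With a minimum of 15 tags it was 7. No share of all protein-coding genes is given for either setting. The number with a control-specific promoter peak, 6 as reported, was 0 with a score of at least 6 and 0 with at least 15 tags. The promoter share of member peaks, 34.6% beside 15.3% for all protein-coding nearest genes, was 50.9% without chromosomes 2, 6, 14, 16, 17 and 20. No share over all genes is given for that setting. The ratio of depleted-specific to control-specific peaks, 1.44, was 2.80 without those chromosomes, 2.83 for promoter peaks only and 2.42 with a score of at least 6. Over all protein-coding nearest genes the first 3 of these were 1.61, 2.99 and 3.24. With at least 15 tags the member ratio was 0.737 (0.342 to 1.55), the other way but with an interval that includes 1. The minimums treat the libraries unequally by construction, since 1 tag is worth more in the depleted-specific list: the score minimum kept 46.3% of control-specific and 78.0% of depleted-specific member peaks, and the tag minimum 46.3% and 23.7%. Over all peaks of those lists the score minimum kept 45.8% and 75.9% and the tag minimum 45.8% and 20.6%, near the values of the members. With motifs searched within 50 bp of the centre, the share of promoter peaks was 20.8% for Sp1, 13.2% for NFY and 13.2% for ETS, beside 38%, 24.3% and 8.78% for all promoter peaks, and YY1 went from 18.9% to 11.3%. No paired analysis was possible because there was 1 library per condition, and for the same reason no replicate could be left out. The specific promoter peaks, with 12 to 22 tags each, are measured with low precision.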

Other observations

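The MRPL24 promoter stretch, which held none of the searched motifs, holds the run ACTACAA 2 times, starting at bases 48 and 109 of the printed stretch. This run belongs to the element bound by the zinc finger factor ZNF143, and it was counted only after the sequence was seen. On either strand it was present in 6 of 53 member promoter peaks, or 11.3% (4.27% to 23%), against 4.24% of 6392 protein-coding promoter peaks. Without the MRPL24 peak that prompted the count it was present in 5 of 52, or 9.62% (3.20% to 21.0%), an interval that includes the share of all promoter peaks. The member peaks holding it were those of MRPL32, MRPL34 and MRPS31 in the common list, MRPL14 in the control-specific list, and MRPL24 and MRPS18A in the depleted-specific list.

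Among peaks named for non-coding neighbours, MRPL20-AS1 had a depleted-specific promoter peak of 22 tags at chr1:1399331-1399631 and a control-specific peak of 17 tags at its transcription end. Of the 5 mitochondrial ribosomal proteins whose symbols do not start with MRPL or MRPS, AURKAIP1 and PTCD3 had a common promoter peak. DAP3, a GTP-binding protein of the small subunit, had a control-specific peak outside its promoter, and GADD45GIP1 and CHCHD1 had no listed peak.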
